A study of Mus musculus with 15 samples.

Results

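Heat shock proteins, J-proteins and chaperonins are the protein-folding machinery of the cell. HSP70 proteins bind unfolded stretches of a client and are driven by J-proteins (Dnaj genes), which deliver clients and stimulate ATP hydrolysis through a J-domain, while HSP110 proteins and Hspbp1 exchange the nucleotide. HSP90 completes the folding of kinases and receptors, small heat shock proteins hold unfolded clients and, in the case of Hspb1, also bind actin, and chaperonins enclose a client in a ring. The cytosolic chaperonin, called CCT or TRiC, is the ring that folds newly made actin and tubulin. In mouse, the stress-inducible HSP70 genes are among the first genes transcribed from the zygotic genome, without heat shock.

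The members were all protein-coding genes of the deposited table whose symbols begin with Hsp or Dnaj, or are Tcp1 or begin with Cct2 to Cct8. There were 84 such genes among the 53023 genes of the table, and the choice used names and not values. They divided into 3 HSP90, 3 HSP110, 11 HSP70, 2 mitochondrial chaperonin, 8 small heat shock, 45 J-protein and 9 cytosolic chaperonin genes, and 3 others with Hsp symbols. By known role, not all members belong to the label. Hspg2 encodes perlecan, a basement membrane proteoglycan, and Hspb11 encodes a protein of intraflagellar transport. Hspbap1 is named for its binding to Hspb1 and not as a heat shock protein itself.

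Messenger RNA was measured in pools of 5 ICR mouse embryos, fertilised in vitro and collected 32 hours after insemination at the 2-cell stage, where injected embryos had received mRNA at 2 hours. The study asked how disruption of filamentous actin in the nucleus affects the transcriptome, with R62D, an actin mutant unable to polymerise, set beside wild-type actin and embryos without injection; each injected actin was tagged with HA and with a nuclear localisation signal (NLS). The 6 libraries form pairs C, B and A of 2 pools each, and the titles and the annotation of injected mRNA contradict each other on what the pairs are. Pair C is annotated as injected with actinR62D-HA-NLS and titled as the non-injected control, pair B is annotated as injected with actinWT-HA-NLS and titled R62D, and pair A is annotated as non-injected and titled Wt. Both labels give the same 3 pairs, so every comparison is given by pair, and no reading was chosen. The other 9 libraries of the series were not analysed here.

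Depth was 907209 to 1555430 assigned reads. Libraries A2 and C2 stood apart on principal component 1 (28.7% of the variance), with scores of 49.3 and 49.7 against -32.7 to -11.1 in the others. The 2-cell markers Zscan4c, Zscan4d, Zfp352, Tcstv1, Tcstv3, Usp17lc and Tdpoz2 were all detected, with a summed level of 905.5 to 924 FPKM in C, 1352 to 1498 FPKM in B and 709.5 to 1056 FPKM in A. Each of the 7 oocyte markers was detected in some library too, though Zar1 was at 0 in C2, A1 and A2. Their summed level was 298.7 and 159.4 FPKM in C, 286 and 229.9 in B, and 264.8 and 223.3 in A. Maternal RNA is still present at this stage. Of 10 cumulus and granulosa markers 4 (Foxl2, Fshr, Inhba, Ptx3) were at 0 in all libraries and the list summed to 8.24 to 15.2 FPKM, of which Nr5a2, which early embryos also express, made up 7.80 to 14.0 FPKM. Among 9 sperm markers 4 (Odf1, Prm1, Spem1, Tnp2) were at 0. The summed sperm list measured 34.2 to 42.1 FPKM in C, 31.4 to 52.1 FPKM in B and 36.5 to 42.4 FPKM in A, of which Ldhc made up 28.6 to 46.0 FPKM. Actb, cytoplasmic beta-actin, measured 34.6 and 27.1 FPKM in C, 116.1 and 74.1 in B, and 52.0 and 69.2 in A. FPKM are fragments per kilobase of gene length, scaled to the fragments assigned in the library, and in pools of whole embryos fewer cells of a type and less RNA per cell cannot be told apart.

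Hspb1, the member with the lowest unadjusted p in any comparison, is 1 of 4 genes whose start regions are shown. The regions illustrate motifs linked to heat shock factor and the unfolded protein response. Each is 300 bases of the mouse genome, running from 250 bases before to 50 bases after the annotated start, from RefSeq on GRCm38.p6, the mm10 build of the table. Capitals mark matches on either strand to 1 of 3 motifs. The heat shock element with 3 units is GAA, TTC and GAA with 2 bases of any kind between units. Its core with 2 units is GAA and TTC with 2 bases between them, which lies inside the longer form and reads the same on both strands. The ER stress element is CCAAT, then 9 bases of any kind, then CCACG.
Hspb1, chr5:135887669-135887968, plus strand: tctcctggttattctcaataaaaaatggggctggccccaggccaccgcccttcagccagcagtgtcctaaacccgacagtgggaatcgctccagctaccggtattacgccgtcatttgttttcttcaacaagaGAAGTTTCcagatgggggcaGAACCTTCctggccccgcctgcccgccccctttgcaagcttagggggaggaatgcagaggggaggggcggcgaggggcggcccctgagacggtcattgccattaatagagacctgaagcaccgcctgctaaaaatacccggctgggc
Hspe1, chr1:55087898-55088197, plus strand: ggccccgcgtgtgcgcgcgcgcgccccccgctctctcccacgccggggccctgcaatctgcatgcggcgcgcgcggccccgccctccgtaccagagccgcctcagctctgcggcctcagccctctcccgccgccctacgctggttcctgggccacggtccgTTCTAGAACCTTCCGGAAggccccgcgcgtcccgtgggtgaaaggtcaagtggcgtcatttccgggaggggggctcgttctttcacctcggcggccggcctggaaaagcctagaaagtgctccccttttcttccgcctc
Hspa1b, chr17:34959189-34959488, minus strand: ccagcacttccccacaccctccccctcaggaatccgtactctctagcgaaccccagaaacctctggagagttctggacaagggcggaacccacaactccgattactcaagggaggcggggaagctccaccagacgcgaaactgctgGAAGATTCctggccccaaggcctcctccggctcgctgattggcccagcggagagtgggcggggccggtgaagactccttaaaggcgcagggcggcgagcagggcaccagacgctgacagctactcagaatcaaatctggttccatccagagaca
Hspa5, chr2:34771840-34772139, plus strand: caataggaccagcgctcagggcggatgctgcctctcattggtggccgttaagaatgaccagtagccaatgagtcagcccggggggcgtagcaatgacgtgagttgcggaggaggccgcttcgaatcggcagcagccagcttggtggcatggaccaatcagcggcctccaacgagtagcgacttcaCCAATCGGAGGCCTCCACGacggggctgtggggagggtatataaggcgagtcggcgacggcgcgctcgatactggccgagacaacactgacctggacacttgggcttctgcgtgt
Start regions were matched for 69 of the 84 members. The heat shock element with 3 units was found for 4 of the 69 (5.8%), which were Dnajb6, Hspd1, Hspe1 and Hsph1, against 0.662% of 27025 genes with such a region. Hspd1 and Hspe1 lie head to head on chromosome 1, so that their windows overlap and hold the same element. The core with 2 units was found for 16 members (23.2%) and 9.04% of genes, with 2 matches in Hspb1 and 1 in Hspa1b. Hspb1 and Hspa1b did not hold the form with 3 units. The ER stress element was found for Dnajc3, Hsp90b1 and Hspa5, 3 members (4.35%) against 0.137% of genes. A match describes letters in this window only, and its part in the levels was not tested.

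Chaperone genes were well represented in the 2-cell transcriptome. Of the 84 members, 64 averaged 1 FPKM or more. Among them 6 (7.14% of members) reached 100 FPKM, as did 516 protein-coding genes (2.35% of those listed). Between 10 and 100 FPKM there were 30 members (35.7%, against 12.9% of protein-coding genes), and between 1 and 10 FPKM 28 (33.3%, against 25.4%). The 84 genes together took 0.827% and 0.832% of assigned reads in C, 0.796% and 0.936% in B and 0.657% and 0.802% in A. J-protein genes made up 48.7% of the members' summed FPKM, the cytosolic chaperonin 22.4%, HSP90 12.5% and HSP70 8.88%. The 20 members below the filter included 16 with some reads and 4, Hspb2, Hspb7, Hspb9 and Dnajb8, with 0 reads in all libraries, which allows up to 3 reads per library. The lowest member above the filter was Dnajb13 at 1.11 FPKM and the highest below it was Dnajc10 at 0.910 FPKM.

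**Figure D1:**
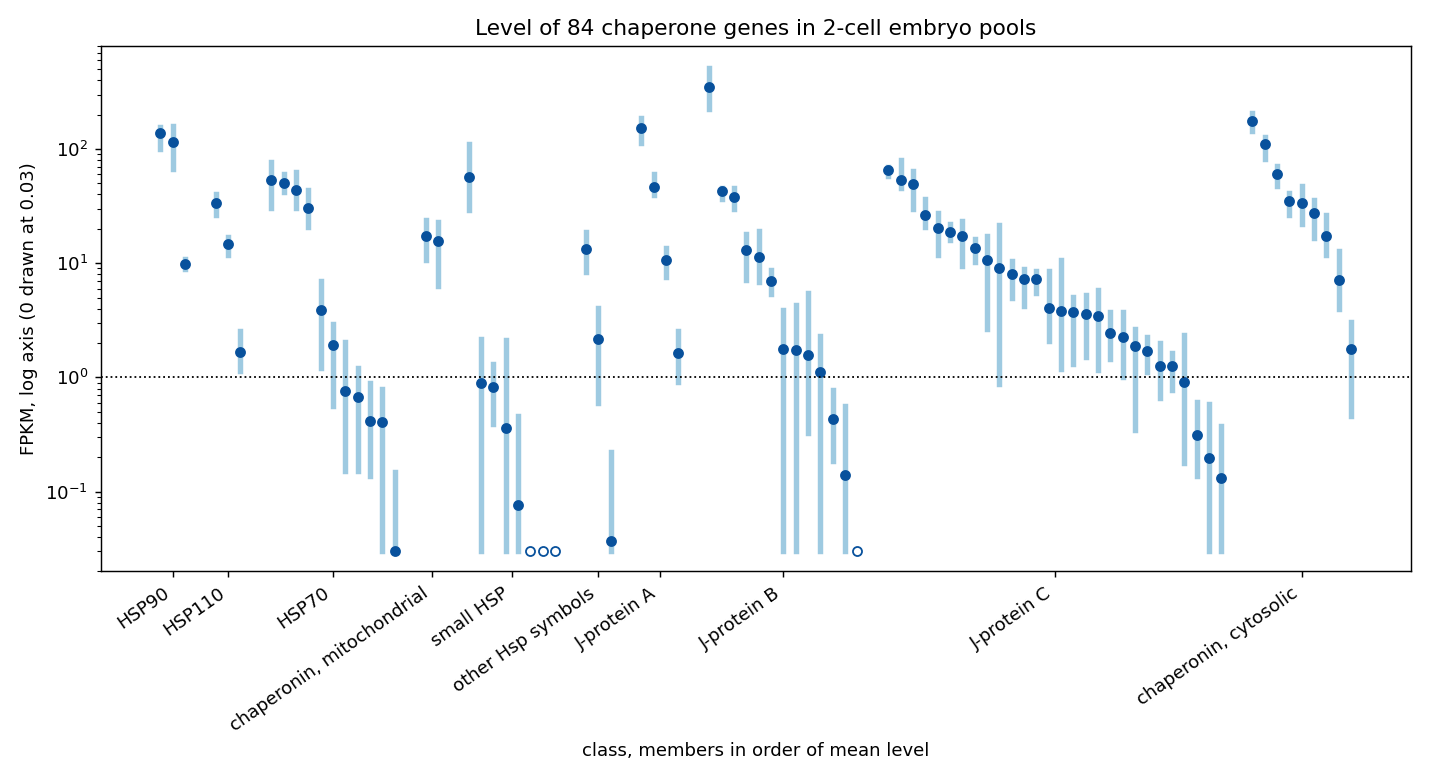
Level of each of the 84 genes on a log axis in FPKM, grouped by class and ordered by mean level within a class. Points are means of 6 libraries, bars run from the lowest to the highest library, open points at the foot are the 4 genes with 0 reads, and the dotted line is the filter at 1 FPKM; Dnajb9 stands highest at 349.8 FPKM, and 1 small heat shock gene, Hspb1, lies above the line.

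Among HSP90 genes, Hsp90aa1, the stress-inducible cytosolic form, measured 135.8 and 146.1 FPKM in C, 144.8 and 157.3 in B, and 99.5 and 140.8 in A. Its constitutive partner Hsp90ab1 measured 135.1 and 111 FPKM in C, 92.7 and 159.5 in B, and 67.2 and 122.9 in A. For both genes A1 was the lowest library, and the pairs overlapped except for Hsp90aa1 in B and A. Hsp90b1 of the endoplasmic reticulum (ER) was lower and steady, at 8.98 to 10.8 FPKM across all 6 libraries.

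Among HSP70 genes the constitutive cytosolic Hspa8 measured 48.6 and 63.2 FPKM in C, 32.7 and 76.3 in B, and 30.7 and 67.9 in A, so that the libraries of a pair differed more than the pairs did. Hspa5, the ER chaperone BiP, measured 60.2 and 50.3 FPKM in C, 41.7 and 61.0 in B, and 45.2 and 44.2 in A. Hspa14, which works at the ribosome, ranged from 30.3 FPKM in B1 to 62.6 FPKM in B2. The inducible genes Hspa1a and Hspa1b, neighbours on chromosome 17, were near the floor. Hspa1b measured 2.20 and 0.983 FPKM in C, 0.564 and 2.54 in B, and 2.91 and 2.29 in A. These values rested on 2 to 9.58 reads per library. Hspa1a measured 0.151 to 1.20 FPKM, and 62.3% of the 50-base windows of the Hspa1b transcript also occur in Hspa1a, so reads cannot be assigned to either with certainty. The HSP110 genes Hspa4 and Hsph1 ranged from 26.2 to 40.8 FPKM and from 11.9 to 17.0 FPKM, and Hspa4l from 1.14 to 2.56 FPKM. The exchange factor gene Hspbp1 ranged from 8.45 to 18.7 FPKM, and perlecan, Hspg2, had reads in B1 alone, 4 in all.

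The highest member was the J-protein gene Dnajb9, which encodes ERdj4, a partner of BiP in the ER. It ranked 222 among all genes of the table by mean FPKM. In class A, the cytosolic HSP70 partners Dnaja2 and Dnaja1 measured 113.5 to 186 FPKM and 39.4 to 60.4 FPKM. Of class C, whose members share little beyond the J-domain, Dnajc21, known for maturation of the large ribosomal subunit, measured 68.5 and 58.4 FPKM in C, 70.2 and 64.3 in B, and 62.4 and 66.3 in A. Its highest library was 1.20 times its lowest. Dnajc8, found in the spliceosome, measured 79.5 FPKM in C1 and 45.3 to 56.2 FPKM in the other 5 libraries, and Dnajc4 29.8 to 64.8 FPKM. In class B, Dnajb6, which suppresses protein aggregation, ranged from 36.5 to 45.8 FPKM, and the ER membrane protein gene Dnajb14 from 30.1 to 45.6 FPKM. Dnaja3, a mitochondrial J-protein, measured 7.55 to 13.5 FPKM. Dnajb1, the partner of inducible HSP70, measured 10.6 and 6.88 FPKM in C, 6.91 and 19.3 in B, and 9.67 and 14.5 in A. The testis genes Dnajb3, Dnajb7 and Dnajb13 averaged 1.73, 1.79 and 1.11 FPKM on 14 to 21.5 reads over all libraries.

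The subunit genes of the cytosolic chaperonin differed widely in level although the ring holds its subunits in equal number. Cct8 averaged 174.4 FPKM, Tcp1, which encodes the alpha subunit, 110 FPKM and Cct3 60.7 FPKM, while Cct2, Cct4 and Cct5 averaged 34.9, 33.8 and 27.6 FPKM and Cct7 7.18 FPKM. Cct7 measured 10.8 and 5.53 FPKM in C, 5.42 and 12.9 in B, and 4.50 and 3.96 in A. The scale matters here, since the table divides by all exonic bases of a gene, 6778 for Cct7 and 3088 for Cct8. Their coding lengths are 1635 and 1647 bases, and over the 6 libraries they had 359 and 3784 assigned reads. Cct6b, the testis form of the zeta subunit, measured 12.4 and 18.9 FPKM in C, 26.6 and 11.9 in B, and 20.6 and 14.3 in A. Cct6a, the general zeta subunit, is typed in the table as a processed transcript and so is no member; it measured 39.2 and 39.1 FPKM in C, 34.7 and 35.8 in B, and 31.2 and 25.2 in A. Cct8l1, a Cct8-like gene, averaged 1.77 FPKM on 24 reads. In the mitochondrial chaperonin, Hspd1 (HSP60) measured 19.1 and 13.5 FPKM in C, 21.3 and 24.0 in B, and 15.9 and 10.6 in A. Its lid Hspe1 (HSP10) measured 22.9 and 13.3 FPKM in C, 21.7 and 11.5 in B, and 18.7 and 6.37 in A.

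**Figure D2:**
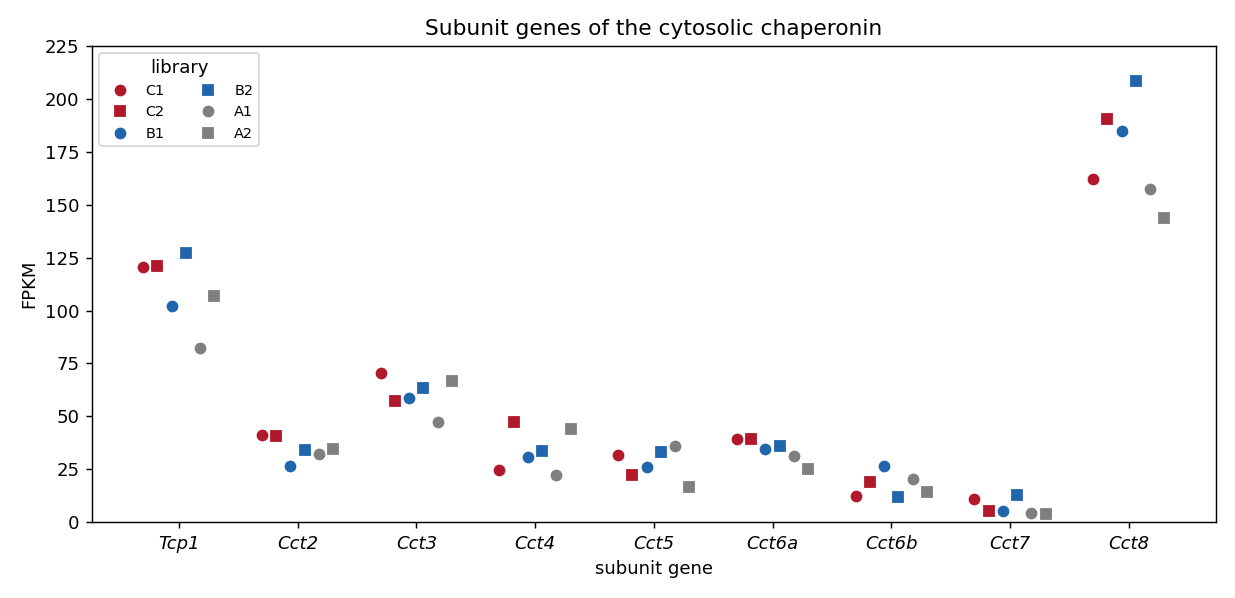
FPKM of the subunit genes of the cytosolic chaperonin in each library, with circles for replicate 1, squares for replicate 2 and colours for pairs C, B and A in that order. Cct8 and Tcp1 lie above all other subunits in every library, Cct7 lies below Cct2, Cct3, Cct4 and Cct5 in every library, and Cct6a is shown although its type in the table keeps it out of the members.

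No member passed in any comparison, and no other gene did (limma on log2(FPKM + 1), Benjamini-Hochberg over 13443 genes, 0% called in each of the 3 comparisons). At an unadjusted p below 0.05 there were 518 genes in C against B, 405 in C against A and 614 in B against A. Limma-voom on the reads recovered from the table also called 0 genes in each comparison. With 2 pools a pair, an exact permutation of 2 against 2 cannot go below a two-sided p of 0.333 for a single gene. The comparisons share pairs, so they are not independent of each other.

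By the annotation C against B sets R62D beside wild-type actin. By the titles it sets embryos without injection beside R62D. Of 64 tested members 34 had log2 fold changes above 0 and 30 below, with a median of 0.02 beside 0.00 over all 13443 genes. The pairs did not overlap for 17 members (26.6%) against 30.2% of all genes, and 1 member (1.56%) had an unadjusted p below 0.05 against 3.85% of all genes. That member was Hspb1, lower in C, where 2.22% of all genes were lower and 1.64% higher at this threshold.

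Hspb1 encodes HSP25, the mouse form of HSP27, an ATP-independent chaperone that binds actin and is known to affect filament dynamics. It lies on chromosome 5 (135887919 to 135889563, plus strand, mm10), behind the region with 2 heat shock cores printed above. It measured 32.7 and 33.1 FPKM in C, 111.2 and 98.6 in B, and 39.3 and 29.5 in A. Both B libraries lay above all 4 others, and C and A overlapped. The values rested on 52.5 and 31 reads in C, 145 and 121.5 in B and 40.5 and 34 in A. Hspb1 averaged 32.9 ± 0.29 FPKM in C, against 104.9 ± 8.87 FPKM in B (SD, n = 2 each), a log2 fold change of -1.64 ± 0.29 (SE; limma, unadjusted p = 7.5e-04, adjusted p = 0.72). In B against A it was 1.59 ± 0.29 (SE; adjusted p = 0.479), with A at 34.4 ± 6.91 FPKM (SD, n = 2). Hspb1 was thus not called over all genes, though its unadjusted p was below 0.05 under all 16 alternatives in both comparisons, at 4.6e-04 to 0.0109 in C against B and 5.5e-04 to 0.0166 in B against A.

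The processed pseudogene Hsp25-ps1 on chromosome 13 was also highest in both B libraries, at 19.4 and 13.6 FPKM in C, 56.2 and 52.5 in B, and 21.0 and 9.94 in A. Of the 50-base windows of the pseudogene 86.6% occur in the Hspb1 transcript, and 51.6% of the Hspb1 windows occur in the pseudogene. Reads from such windows were divided or placed by the authors' counting, and the pseudogene had 7 to 44.75 reads per library. The summed level of the 7 markers of the 2-cell stage was also highest in both B libraries, at 1352 and 1498 FPKM, against 709.5 to 1056 FPKM in the other 4. Singly, Zfp352, Zscan4d and Tdpoz2 had both B libraries highest, while Zscan4c, Usp17lc, Tcstv1 and Tcstv3 did not. The part of this summed level in the Hspb1 level was not tested. The alpha-globin gene Hba-a1, a marker of red blood cells whose reads may be split with its near-identical copy Hba-a2, measured 15.8 and 4.75 FPKM in C, 39.1 and 23.5 in B, and 42.3 and 8.81 in A, while the beta-globin genes Hbb-bs and Hbb-bt were at 0 in all libraries. Hba-a1 was higher in both B libraries than in both C libraries and higher in replicate 1 of every pair, and its part in these differences was not tested. The other 7 small heat shock genes had at most 2.17 FPKM in any library, with the intraflagellar transport gene Hspb11 at a mean of 0.896 FPKM and Hspb6 at 0.818 FPKM.

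**Figure D3:**
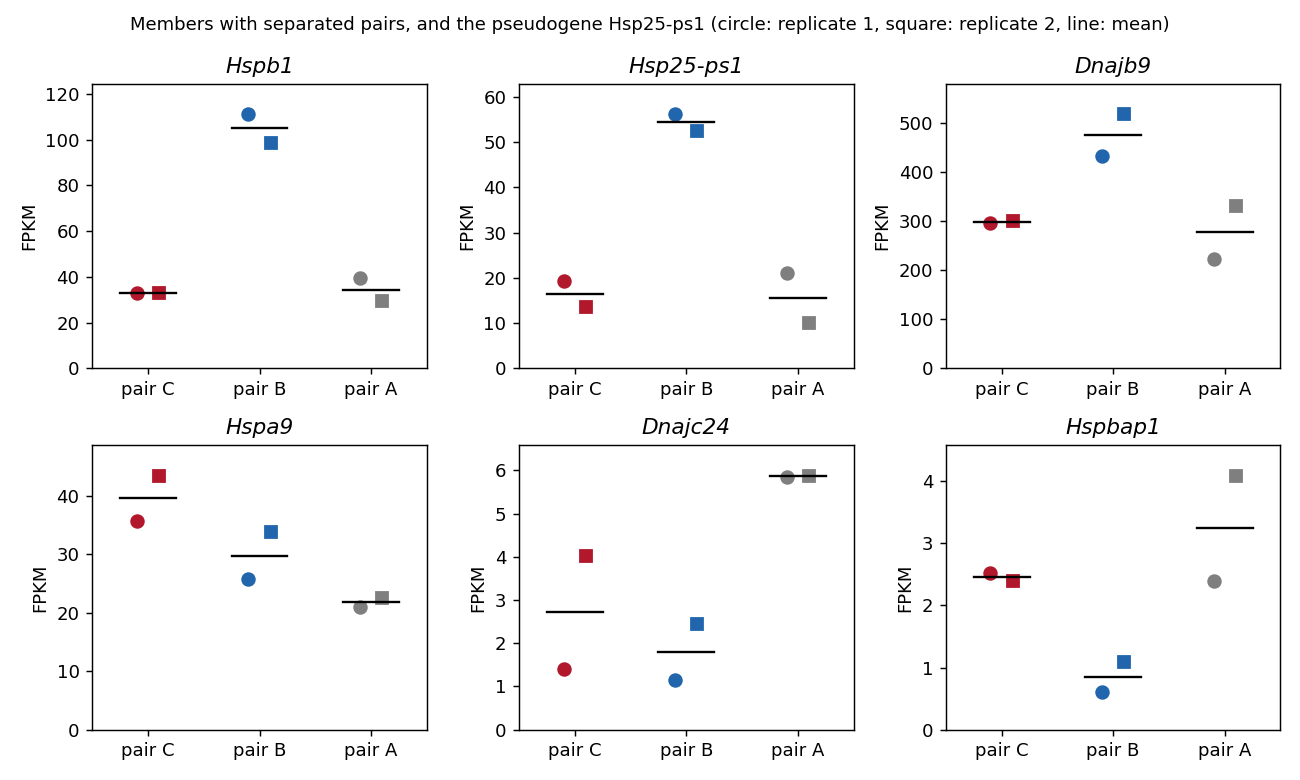
FPKM in each library for the 5 members with an unadjusted p below 0.05 and pairs that do not overlap in some comparison, and for the pseudogene Hsp25-ps1. Circles are replicate 1, squares replicate 2 and lines the mean of a pair; Hspb1 and Hsp25-ps1 are high in both libraries of pair B, and Hspa9 is in the order C, B, A.

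The annotation makes C against A a test of R62D injection. The titles make it embryos without injection set beside those titled Wt. Of 64 members 39 had log2 fold changes above 0 and 25 below (60.9% above, against 56.5% of all genes), with a median of 0.14 beside 0.06 over all genes. The members' median was 0.04 without A2, 0.22 without C2 and 0.09 without A1, where the median of all genes was 0.02, 0.17 and 0.10, so that without A1 the members were not above it. The pairs did not overlap for 19 members (29.7%, against 26.9% of all genes), 15 of them higher in C (23.4%, against 16.5%) and 4 lower (6.25%, against 10.4%). By class the median was 0.45 in the mitochondrial chaperonin (2 genes), 0.28 in HSP70 (6), 0.25 in HSP90 (3) and 0.22 in the cytosolic chaperonin (9). It was 0.14 in classes A (4) and B (10) of the J-proteins and -0.06 in class C (24). In HSP110 (3) it was 0.004, in small heat shock genes (1) -0.05 and in the others with Hsp symbols (2) -0.18.

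Hspa9, mortalin, the HSP70 of the mitochondrial matrix and motor of protein import, was the 1 member (1.56%, against 3.01% of all genes) with an unadjusted p below 0.05, and was higher in C, as were 1.67% of all genes, with 1.34% lower. It measured 35.6 and 43.5 FPKM in C, 25.7 and 33.7 in B, and 21.0 and 22.5 in A. Every C library lay above every B library and every B library above every A library. On 82.5 to 218 reads per library, its log2 fold change in C against A was 0.83 ± 0.31 (SE; limma, unadjusted p = 0.0311, adjusted p = 1). The unadjusted p was 0.11 without C2, 0.0834 without A1 and 0.0616 without A2. Without A2 and C2, the libraries that stand apart, the log2 fold change was 0.74 with an unadjusted p of 0.161. Dnajc19, of the same import motor, did not share the order, as it measured 8.46 and 6.71 FPKM in C, 8.64 and 6.86 in B, and 7.20 and 5.44 in A.

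In B against A the annotation gives wild-type actin injection set beside no injection. The titles give R62D set beside Wt. Of 64 members 42 had log2 fold changes above 0 and 22 below (65.6% above, against 55.1% of all genes), with a median of 0.13 beside 0.07 over all genes. Without A1 the order turned, with a median of 0.09 for the members and 0.10 over all genes. With median scaling the values were 0.04 and -0.03. The pairs did not overlap for 19 members (29.7%, against 31.7% of all genes). At an unadjusted p below 0.05 there were 4 members (6.25%, against 4.57%), with Hspb1 and Dnajb9 higher in B (3.12%, against 2.77%) and Dnajc24 and Hspbap1 lower (3.12%, against 1.79%).

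Dnajb9 (chromosome 12, 44205559 to 44210326, minus strand) measured 295.1 and 300.1 FPKM in C, 431.4 and 517.7 in B, and 223.4 and 331.3 in A. As for Hspb1, both B libraries lay above all others. Its log2 fold change in B against A was 0.79 ± 0.29 (SE; limma, unadjusted p = 0.029, adjusted p = 0.991), and 0.51 with an unadjusted p of 0.152 without A1 and 0.66 with 0.119 without B2. In C against B it was -0.67 ± 0.29 (SE; unadjusted p = 0.0559). The ER members differed in their order of pairs. Dnajc10 (ERdj5), not tested for its low level, measured 0.899 and 0.441 FPKM in C, 2.37 and 1.17 in B, and 0.400 and 0.179 in A, with both B libraries above the others. Its values rested on 7 and 2 reads in C, 15 and 7 in B, and 2 and 1 in A. Dnajb11 (ERdj3) was highest in C, at 18.1 FPKM in both libraries, with 7.09 and 15.5 FPKM in B and 9.89 and 9.12 FPKM in A. Dnajc3 (P58IPK), another BiP partner, averaged 17.5 FPKM in C, 18.7 FPKM in B and 19.7 FPKM in A, with pairs that overlapped. Of the co-chaperone list, chosen after their values were seen, the ER genes Manf and Pdia3 had both B libraries highest. Manf measured 31.6 to 32.6 FPKM in B and 20.6 to 25.8 FPKM in the other 4, and Pdia3 163.3 to 166.2 FPKM in B and 122.6 to 156.8 FPKM in the other 4. The other tested ER chaperone genes of the list, Calr, Canx, Creld2, P4hb, Pdia4, Pdia6 and Sdf2l1, did not have both B libraries highest. Canx was lower in both B libraries than in both C libraries, and Pdia6 lower than in both A libraries.

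Dnajc24, also known as DPH4, serves the synthesis of diphthamide on elongation factor 2. It measured 1.41 and 4.03 FPKM in C, 1.16 and 2.45 in B, and 5.84 and 5.88 in A. Both A libraries were above all others, on 8 and 9 reads, against 2 to 5 reads in the rest, and the log2 fold change in B against A was -1.33 ± 0.50 (SE; limma, unadjusted p = 0.0324, adjusted p = 0.991). Hspbap1, named for its binding to Hspb1, measured 2.52 and 2.40 FPKM in C, 0.603 and 1.09 in B, and 2.40 and 4.09 in A. Hspbap1 was lowest in B, on 3.5 and 6 reads, with a log2 fold change of -1.18 ± 0.46 in B against A (SE; limma, unadjusted p = 0.0355, adjusted p = 0.991). Hspb1 and Hspbap1 were both named for a difference between B and A, and a relation between them was not tested. The unadjusted p was 0.117 without B1 and 0.119 without A2 for Hspbap1, and 0.172 without B1, 0.109 without A1 and 0.11 without A2 for Dnajc24.

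**Figure D4:**
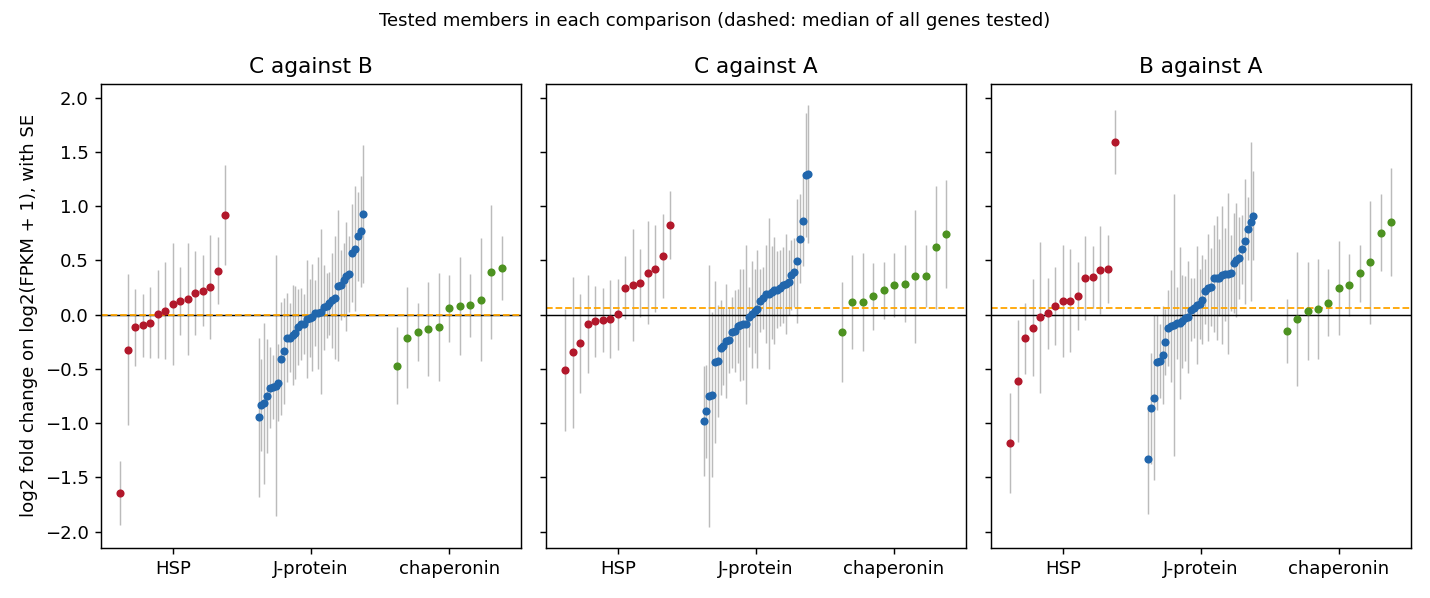
Log2 fold change with its standard error for the 64 tested members in each comparison, divided into HSP families, J-proteins and chaperonins and sorted within each. The dashed line is the median of all 13443 genes; Hspb1 is the lowest HSP point in C against B (-1.64) and the highest in B against A (1.59).

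Some members differed more between the libraries of a pair than between pairs, and in the same direction in all 3 pairs. Dnajc5b, a relative of the cysteine string protein gene Dnajc5, measured 12.5 and 0.876 FPKM in C, 13.5 and 3.32 in B, and 21.8 and 2.13 in A, on 21.5 to 27.5 reads in the libraries numbered 1 and 1 to 5 reads in those numbered 2. Hspe1, given above, was likewise higher in every library numbered 1. Hspa8 and Cct4 went the other way, with Cct4 at 24.5 and 47.4 FPKM in C, 30.9 and 33.5 in B, and 22.1 and 44.2 in A. In all, 7 of 64 members (10.9%) were lower in all 3 libraries numbered 2 than in all 3 numbered 1, against 10.1% of all genes, and 5 (7.81%) were higher, against 4.78%. The members' shares are close to the background, and the labels do not say what the number stands for. The summed oocyte markers, given above, were also higher in the library numbered 1 of every pair, although Zp3 was lower there in each.

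**Figure D5:**
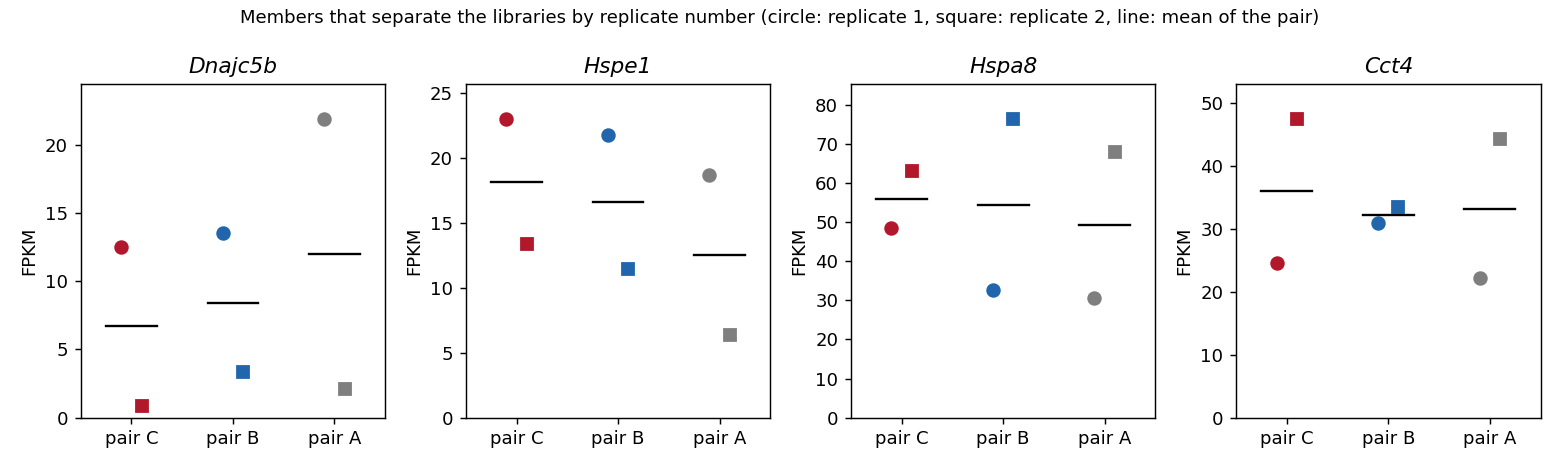
FPKM of Dnajc5b, Hspe1, Hspa8 and Cct4 in each library, by pair, with circles for replicate 1, squares for replicate 2 and lines for the mean of a pair. Circles lie above squares in every pair for Dnajc5b and Hspe1, and below them for Hspa8 and Cct4.

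Co-chaperones and regulators were followed as a list of 86 genes, of which 70 were tested. Hsf1, the main heat shock factor, measured 3.83 and 2.34 FPKM in C, 2.35 and 3.80 in B, and 4.53 and 2.54 in A. Hsf2 did not exceed 0.885 FPKM. No gene of the list passed over all genes (limma). At an unadjusted p below 0.05 there were 2 genes in C against B (2.86%), 1 in C against A (1.43%) and 1 in B against A (1.43%), each share below that of all genes. Stub1, which encodes CHIP, the ubiquitin ligase that marks HSP70 and HSP90 clients, measured 17.8 and 11.8 FPKM in C, 2.68 and 8.93 in B, and 4.49 and 5.79 in A, with both C libraries above the other 4. Trap1, the mitochondrial HSP90, measured 12.5 and 9.21 FPKM in C, 19.2 and 19.7 in B, and 12.2 and 15.3 in A. Pdcl, of the phosducin-like cofactors of the cytosolic chaperonin, measured 9.43 and 17.3 FPKM in C, 17.7 and 19.2 in B, and 5.60 and 10.3 in A. The list had a median log2 fold change of 0.07 in C against B, 0.08 in C against A and 0.03 in B against A, beside 0.00, 0.06 and 0.07 over all genes.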

How the data were processed

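The deposited table holds FPKM that the authors computed, beside a length for each gene. Per the submitters' processing notes the build was mm10, and the tools named include Trimmomatic, Trim Galore, cutadapt, STAR and featureCounts. Which annotation and strand setting were used is not stated in the labels. The deposited gene lengths, the other quantity used, equal the union of GENCODE M21 exons for 95.6% of matched genes. Multiplying FPKM by length gave reads after 1 factor per library, and 55.6% to 57.8% of values above 0 were whole (tolerance 0.001 reads), so that many genes carry fractions of reads. For 21 members more than 10% of the 50-base windows of the longest transcript also occur in other genes. Among them were Hsp90aa1 (58.5%), Hspa8 (52.7%), Hspd1 (44.8%) and Dnajb6 (42.8%), whose levels share the limit given for Hspb1. Limits from 0 reads (3 per library) cover counting error only.

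Genes averaging 1 FPKM or more (13443) were taken as log2(FPKM + 1). Limma 3.58.1 (R 4.3.3) fitted pair means over the 6 libraries, allowing a variance trend, with Benjamini-Hochberg adjustment over all these genes and a threshold of 0.05. Fold changes on this scale understate those of low genes. The fit was also run on simulated data. The planted changes were larger than any log2 fold change printed for a single member, and lay only in genes with more reads than the lowest members. That run therefore does not cover changes of the size given here. No label states that the pools of a pair were from separate matings, so p-values measure only the spread between these pools, which may be technical. Named members were the 3 highest of each class, all chaperonin subunits, Hspa1a, Hspa1b, and, per comparison, up to 5 a direction with an unadjusted p below 0.05 and pairs that do not overlap. Of the co-chaperone list these were Hsf1, Hsf2 and up to 3 genes per comparison with an unadjusted p below 0.05. Other members were named after their values were seen. Members and lists were chosen with earlier results of these data known. Alternatives changed the pseudocount (0.1), the filter (none, or 5 FPKM), the scaling (median, quantile), the variance trend, the gene set (protein-coding), the model (limma-voom on recovered reads, or the replicate number as a block) and the libraries included. One marker list is reported only for single genes.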

Additional observations from a re-analysis of the deposited data

How the results depend on the processing

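The log2 fold changes printed with an unadjusted p below 0.05 (Hspb1 in C against B and in B against A, Hspa9, Dnajb9, Dnajc24 and Hspbap1) kept their direction under all alternatives run, 15 or 16 each, and none passed over all genes. For Hspb1 the lowest and highest values were -1.72 and -1.55 in C against B, and 1.39 and 1.79 in B against A. Hspa9 ranged from 0.69 to 0.97 with an unadjusted p below 0.05 in 9 of 16, Dnajb9 from 0.51 to 1.08 (12 of 16), Dnajc24 from -1.74 to -0.99 (11 of 15) and Hspbap1 from -1.86 to -0.89 (12 of 15). Over all genes 1 gene, not a member, passed in C against B with a pseudocount of 0.1. The number of members with an unadjusted p below 0.05 in C against B was 1, and became 2 with quantile normalization, without a variance trend and with the replicate block, 3 without A2 and C2 together, 4 with limma-voom, and 2 to 3 when 1 library was left out. In C against A it was 1, and became 0 with quantile normalization and without a variance trend, 2 with protein-coding genes only and with the replicate block, 3 with limma-voom, and 1 to 2 when 1 library was left out. In B against A it was 4, and became 2 with the filter at 5 FPKM, where low members were no longer tested, and 2 without A2 and C2 together. Otherwise the cause was not tested. A lone library of a pair is assumed to vary like the others. The members' median in C against B changed sign without C1 (-0.04) and without B1 (-0.05). Over all genes the split at an unadjusted p below 0.05 in B against A was 373 higher and 241 lower, and 309 and 311 after median scaling. The labels do not say whether the replicate numbers pair the pools. Deviations of equally numbered libraries correlated at 0.005 (C and B), 0.203 (C and A) and 0.098 (B and A), while 5 of 6 libraries were closest to one of their own number. B2 was closest to C1, so no library was closest to the other library of its own pair. With the replicate number as a block, 2, 2 and 4 members had an unadjusted p below 0.05 in the 3 comparisons (limma), and 0 genes were called.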
